A study of Rattus norvegicus with 8 samples.

Results

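The genes described here are the Gadd45 family (Gadd45a, Gadd45b and Gadd45g) and 7 genes of p53-dependent growth arrest and cell death (Cdkn1a, Mdm2, Ccng1, Btg2, Bax, Phlda3 and Zmat3). They were taken by symbol, as every probe of the arrays whose accession RefSeq assigns to a member, which gave 13 of 30367 probes and 10 of 15154 symbols. Of these probes 12 passed the filter on dim probes and all 10 genes had at least 1 tested probe. A second Zmat3 probe was well above background in the liver channel (Cy5) on none of the 8 arrays and was not tested. The PFOS livers came from 4 male Sprague-Dawley rats, labelled as adult, whose diet held potassium perfluorooctanesulfonate (abbreviated PFOS), a surfactant with a fluorinated carbon chain, at 50 mg/kg over 28 days. The control livers came from 4 rats of the same strain, sex and age class on the control diet for the same time. Both diets were given ad libitum. Liver RNA of each rat was labelled with Cy5 and set against a commercial pool of rat RNA labelled with Cy3, on 1 two-colour array per rat, and the arrays compare the transcripts of PFOS livers with those of control livers.

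Gadd45 proteins are small nuclear stress proteins with no known enzyme activity of their own. They bind proliferating cell nuclear antigen, the Cdk1 and cyclin B1 complex and the kinase Map3k4, which starts the p38 and JNK cascades. Gadd45a is a classical p53 target after DNA damage, whereas Gadd45b is best known as a target of NF-kB and TGF-beta signalling and as an early gene of liver regeneration, and Gadd45g as a cytokine-induced member. The transcription factor p53 is stabilised by damage and other stress, and turns on a set of genes that includes the cell cycle inhibitor Cdkn1a (p21) and its own negative regulator Mdm2. Liver cells of adult rats rarely divide, so that these genes are known there mostly as markers of injury, of toxic stress and of the entry into or exit from the cell cycle.

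The promoters of the 3 Gadd45 genes are shown because 1 of these paralogues was called with the diet and the others were not. RefSeq start sites of the GRCr8 assembly were matched for 8 of the 10 genes, and Bax and Zmat3 had no entry. Each sequence is the 250 bases before the start site, 5′ to 3′ on the gene's strand. Capitals mark matches on either strand to the TATA box (TATAAA), the GC box (GGGCGG), the CCAAT box (CCAAT), the AP-1 site (TGANTCA), the cyclic AMP element (TGACGTCA), the nuclear receptor core (AGGTCA), the kappaB consensus or the 10-base p53 half-site consensus.
Gadd45a, chr4:97486800-97487049, minus strand: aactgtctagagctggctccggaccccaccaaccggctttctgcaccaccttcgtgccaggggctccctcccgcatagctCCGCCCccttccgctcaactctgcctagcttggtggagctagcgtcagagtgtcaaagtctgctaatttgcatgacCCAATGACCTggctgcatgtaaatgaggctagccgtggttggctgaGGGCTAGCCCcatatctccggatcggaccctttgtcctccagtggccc
Gadd45b, chr7:9430719-9430968, minus strand: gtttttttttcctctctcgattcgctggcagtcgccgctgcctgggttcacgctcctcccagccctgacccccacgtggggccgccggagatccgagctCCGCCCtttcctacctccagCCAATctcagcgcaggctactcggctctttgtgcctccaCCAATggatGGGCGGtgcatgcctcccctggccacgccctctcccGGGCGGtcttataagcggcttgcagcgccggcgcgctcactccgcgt
Gadd45g, chr17:13530352-13530601, minus strand: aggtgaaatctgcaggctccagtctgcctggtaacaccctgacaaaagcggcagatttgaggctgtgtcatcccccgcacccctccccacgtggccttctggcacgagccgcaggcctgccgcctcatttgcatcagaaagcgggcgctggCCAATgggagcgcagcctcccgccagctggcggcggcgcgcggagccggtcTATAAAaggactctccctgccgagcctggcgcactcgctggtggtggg

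The Gadd45b window held 3 GC boxes, whose last bases were 146, 78 and 42 bases before the start site, and 2 CCAAT boxes, and none of the other motifs. It lies inside the bounds of the annotated gene, for which RefSeq also lists a transcript with an earlier start. The Mdm2 window also lies inside the bounds of its gene, and the Cdkn1a window crosses the annotated start of its gene. The Gadd45a window held 1 GC box, 1 CCAAT box that shares its last base with a nuclear receptor core, and 1 p53 half-site. The Gadd45g window held 1 TATA box and 1 CCAAT box. Among the 33469 windows of the same length in the table, 30.5% held the GC box, 34.0% the CCAAT box, 12.9% the TATA box and 14.1% the nuclear receptor core, while 6.34% held the AP-1 site and 1.59% the cyclic AMP element. The p53 half-site was in 6.64% of all windows and in those of Gadd45a, Ccng1 and Cdkn1a, and a half-site is not a full p53 element. The kappaB consensus was in 3.54% of all windows and in none of the 8, and the AP-1 site was also in none of the 8. The Btg2 window held a cyclic AMP element and a nuclear receptor core. GC boxes were in the windows of Gadd45a, Gadd45b, Mdm2, Ccng1, Btg2 and Phlda3, and CCAAT boxes in those of Gadd45a, Gadd45b, Gadd45g, Mdm2, Ccng1 and Btg2. These matches describe the letters in the windows and say nothing of binding.

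All 8 arrays were on 1 slide, in 2 slide rows with 2 arrays of each group each, and their values are given below as log2 ratios of Cy5 over Cy3 and as log2 Cy5 alone. Each array had a median Cy5 brightness of 116 to 160 units before background subtraction. The median local background was 71 to 75 units, and 50.4% to 59.1% of probes were well above background. Pairs of arrays correlated over the tested features (log2 ratios) at 0.973 to 0.982 within the PFOS group, at 0.980 to 0.984 within the control group and at 0.958 to 0.974 across groups. Precision is limited by the number of arrays, and over the 15204 tested genes and features a log2 change had a median SE of 0.11. A change is PFOS minus control, and it was called where limma's adjusted p (Benjamini-Hochberg over all tested features) was below 0.05. In bulk liver RNA, fewer cells of a type and less RNA per cell cannot be told apart.

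Among the 10 genes, Gadd45b rose in PFOS livers and none of the other 9 was called in either direction. This was 1 of 10 genes called in the ratio, against 3.93% of all tested features (1.82% higher and 2.11% lower), and 1 of 10 with Cy5 alone, against 4.69% (2.22% higher and 2.47% lower). In Cy3, the reference, limma called 0 of the 10 genes, against 0.0789% of all tested features. There 0 of the 10 had an unadjusted p below 0.05, for which the share of all features is not given here. Taken probe by probe, 1 of 12 tested probes was called in the ratio, against 3.72% of all tested probes, and 1 of 12 in Cy5 alone, against 4.58%. The median log2 change of the ratio over the 10 genes was 0.06, with 6 genes above 0 and 4 below, and that of all tested features was -0.01. The 9 genes that were not called had log2 changes of -0.32 to 0.17 and adjusted p-values of 0.284 to 0.997 (limma). Gadd45b was the 1 gene of the 10 whose groups did not overlap in the ratio, which held for 12.8% of all tested features. It was also the 1 gene with an unadjusted p below 0.05 in the ratio, against 19.9% of all tested features.

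**Figure D1:**
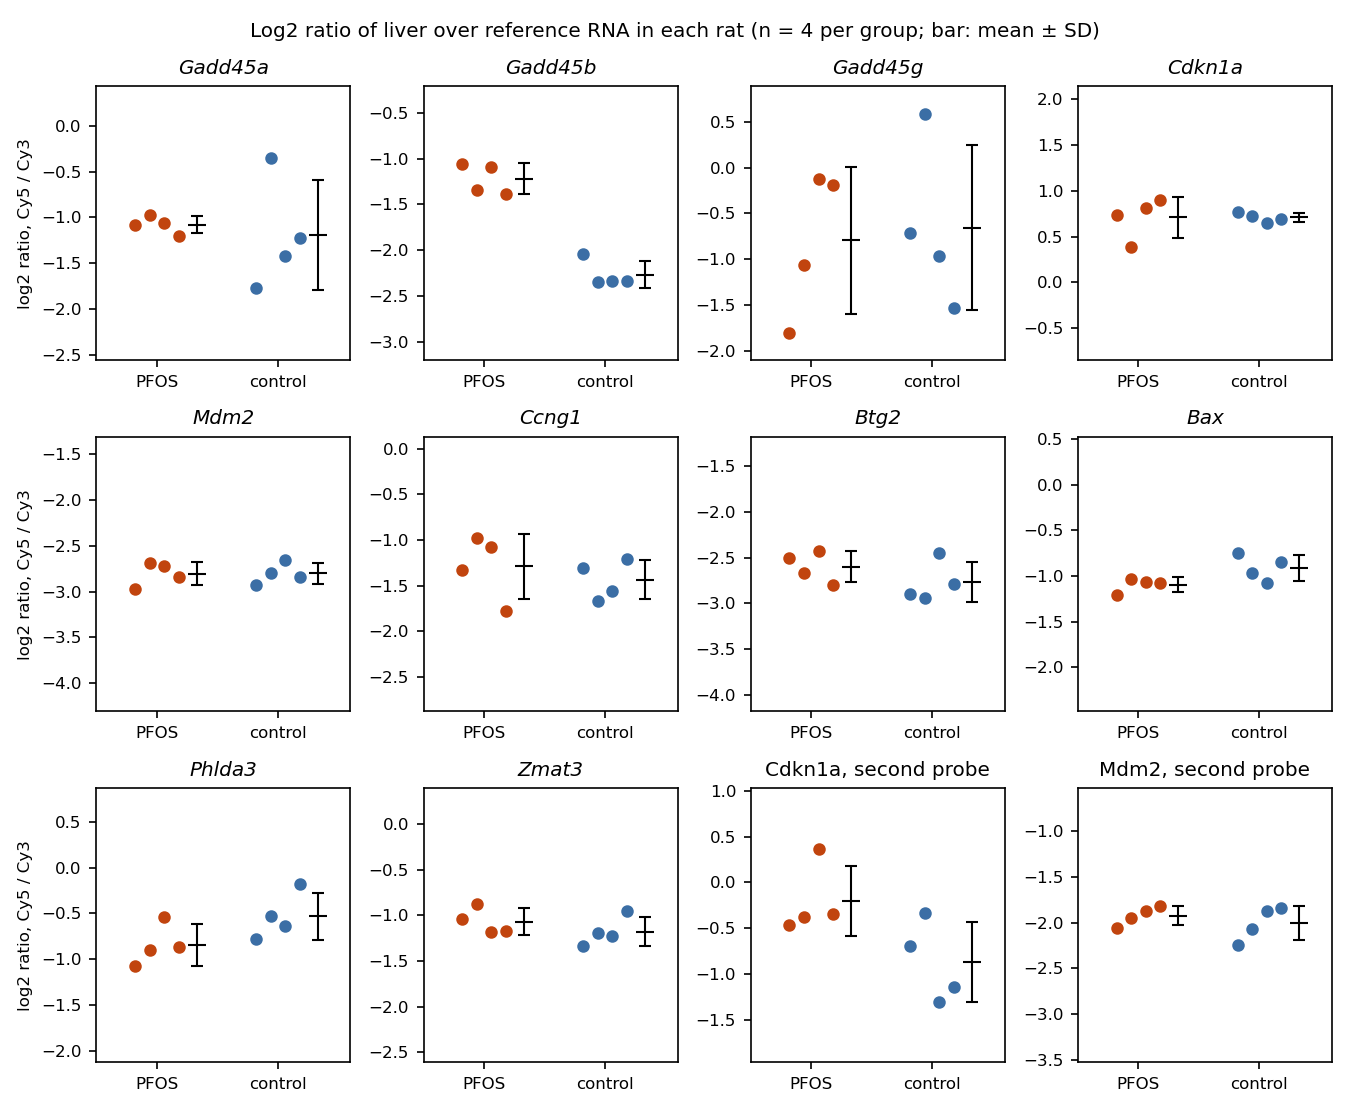
Log2 ratio of Cy5 (liver) over Cy3 (reference RNA) of each tested probe, 1 point per rat, with PFOS rats left of control rats and the mean ± SD beside them (n = 4 per group); every panel spans the same number of log2 units. All 4 PFOS points of Gadd45b lie above all 4 control points, while the groups overlap in every other panel, and the points of Gadd45a in controls and of Gadd45g in both groups are widely spread.

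Gadd45b, which in mouse is also described as a coactivator of the nuclear receptor CAR, was the gene that separated the groups. Its log2 ratio was -1.06, -1.34, -1.09 and -1.39 in PFOS livers, against -2.04, -2.35, -2.34 and -2.33 in control livers. Every PFOS rat was above every control rat, and the lowest PFOS value lay 0.65 above the highest control value. The log2 change of the ratio was 1.05 (SE 0.11, 95% confidence interval 0.80 to 1.30), or 2.07-fold, with an adjusted p of 0.00204 (limma).

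The liver channel gave the same separation without the reference. Log2 Cy5 of Gadd45b was 9.59, 9.21, 9.47 and 9.17 in PFOS livers, against 8.51, 8.22, 8.22 and 8.17 in control livers. The groups again did not overlap, and the log2 change in Cy5 was 1.08 (SE 0.12, 95% confidence interval 0.82 to 1.34), or 2.11-fold, with an adjusted p of 0.00129 (limma). In Cy3, the common reference, the log2 change of Gadd45b was 0.00 (95% confidence interval -0.05 to 0.05).

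Among the 15204 tested features, 127 (0.835%) rose in the ratio by as much as Gadd45b or more, itself included, and among the 9620 with a symbol its rise was number 78. By p-value it was number 35 of all tested features. The call held without any single rat, where the change was 0.99 to 1.12 with adjusted p-values of 0.00316 to 0.00866 (limma). Within the slide rows, which have 2 PFOS and 2 control rats each, the change was 1.00 and 1.10, with adjusted p-values of 0.108 and 0.115 (limma).

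Gadd45a, the p53-responsive paralogue, was not called. Its log2 ratio was -1.08, -0.98, -1.06 and -1.20 in PFOS livers, against -1.77, -0.36, -1.42 and -1.22 in control livers. The PFOS values lay close together and inside the range of the controls, of which control 2 was high and control 1 low. The log2 change was 0.11 (SE 0.25, 95% confidence interval -0.46 to 0.68, adjusted p = 0.842 by limma) in the ratio and 0.16 in Cy5 alone. The interval therefore includes a rise of up to 0.68 on the log2 scale, and the change in the ratio was 0.39 without control 2 and -0.081 without control 1.

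Gadd45g, the cytokine-induced paralogue, varied most between rats. Its log2 ratio was -1.80, -1.07, -0.12 and -0.18 in PFOS livers, against -0.71, 0.59, -0.96 and -1.53 in control livers. Values were low in PFOS 1 and control 4 and high in control 2, and the groups overlapped over most of their range. The log2 change was -0.14 (SE 0.49, 95% confidence interval -1.24 to 0.96, adjusted p = 0.903 by limma) in the ratio and -0.13 in Cy5 alone, and the interval reaches past 1 log2 unit downward.

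The direction of Gadd45g differed between the slide rows. In row 1 (PFOS 1, PFOS 2, control 1 and control 2) its log2 change was -1.38, and in row 2 (PFOS 3, PFOS 4, control 3 and control 4) it was 1.09, neither with a call. The rows also differed in brightness, with Cy5 medians of 154.5 to 160 units in row 1 and 116 to 138 units in row 2. The part of slide position in the values of Gadd45g was not tested.

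Whether Gadd45b responded more than its paralogues was tested on the difference between the genes' log2 ratios within each array. This was not a planned comparison, and Gadd45b is the paralogue that was called on these same arrays. Gadd45b minus Gadd45a averaged -0.14 ± 0.17 in PFOS livers and -1.07 ± 0.71 in control livers (SD, n = 4 each), which differ by 0.94 (two-sided exact permutation test, p = 0.0571, 0.114 adjusted over 2 pairs). Gadd45b minus Gadd45g averaged -0.42 ± 0.87 in PFOS livers and -1.61 ± 0.92 in control livers (SD, n = 4 each), which differ by 1.19 (two-sided exact permutation test, p = 0.114, also 0.114 adjusted). The smallest p that 4 against 4 arrays allow is 0.0286. The paralogues were therefore not shown to differ in their response, although Gadd45b alone was called.

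**Figure D2:**
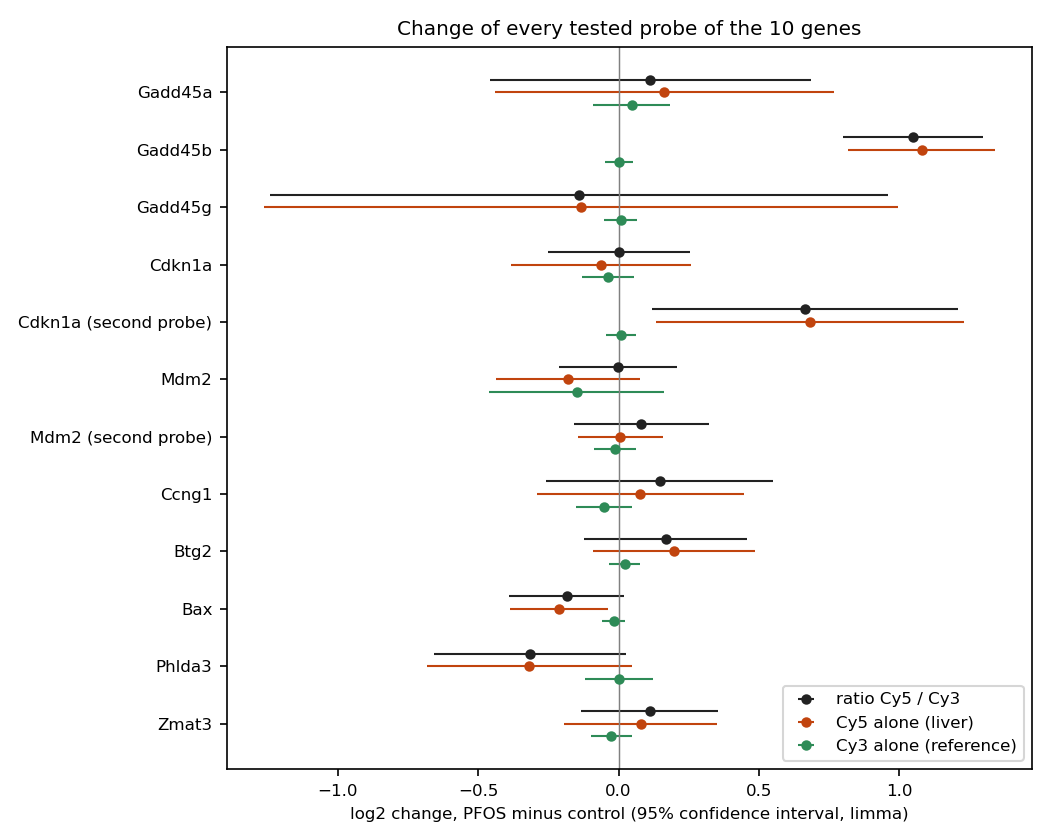
Log2 change, PFOS minus control, of every tested probe of the 10 genes with its 95% confidence interval from limma, for the ratio, for the liver channel (Cy5) and for the reference channel (Cy3). Gadd45b stands at 1.05 in the ratio and 1.08 in Cy5 with 0.00 in Cy3, and in the ratio and in Cy5 the intervals of Gadd45a and Gadd45g are the widest among the probes that stand for a gene.

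Cdkn1a encodes p21, the inhibitor of cyclin-dependent kinases through which p53 stops the cell cycle, and it was measured by 2 probes. The probe with the brighter liver signal, which stands for the gene, had log2 ratios of 0.73, 0.39, 0.82 and 0.90 in PFOS livers, against 0.77, 0.73, 0.65 and 0.69 in control livers. The PFOS values lay on both sides of the controls, with PFOS 2 lowest. Its log2 change was 0.00 (SE 0.11, 95% confidence interval -0.25 to 0.25, adjusted p = 0.997 by limma) in the ratio and -0.06 in Cy5 alone.

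The second Cdkn1a probe, which has 1 spot per array, had log2 ratios of -0.46, -0.38, 0.37 and -0.35 in PFOS livers, against -0.69, -0.34, -1.30 and -1.14 in control livers. PFOS 3 was high, and control 2 lay among the PFOS rats, so that the groups overlapped. The log2 change was 0.66 (SE 0.24, 95% confidence interval 0.12 to 1.21, adjusted p = 0.177 over all probes by limma) in the ratio and 0.68 in Cy5 alone (adjusted p = 0.159). The difference between the probes changed by 0.66 with the diet (two-sided exact permutation test chosen after the values were seen, p = 0.0857, 0.171 adjusted over 2 genes). For the second probe the slide rows gave 0.10 and 1.23.

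Mdm2 encodes the ubiquitin ligase that marks p53 for degradation, and it is itself a p53 target. Its log2 ratio was -2.97, -2.68, -2.72 and -2.84 in PFOS livers, against -2.92, -2.79, -2.65 and -2.83 in control livers, with each group spread over the same range. The log2 change was -0.00 (SE 0.09, 95% confidence interval -0.21 to 0.21, adjusted p = 0.995 by limma). With Cy5 alone it was -0.18 (adjusted p = 0.402), and PFOS 2 was low there at 7.36, against 7.78 to 7.82 in the other PFOS rats and 7.75 to 7.99 in controls. The same array was also low in Cy3 for this probe, at 11.99 against 12.58 to 12.66 on the other arrays. The second Mdm2 probe changed by 0.08 in the ratio (adjusted p = 0.727) and by 0.01 in Cy5, both without a call.

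Ccng1, for cyclin G1, which links a protein phosphatase to Mdm2, had log2 ratios of -1.77 to -0.97 in PFOS livers, against -1.66 to -1.21 in control livers. The PFOS rats enclosed the range of the controls, with PFOS 4 lowest and PFOS 2 highest. Its change in the ratio was 0.15 on the log2 scale (SE 0.18, 95% confidence interval -0.26 to 0.55, adjusted p = 0.694 by limma).

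Btg2, an antiproliferative protein that promotes shortening of messenger RNA tails and is an early p53 target, had log2 ratios of -2.80 to -2.43 in PFOS livers, against -2.94 to -2.45 in control livers. Control 1 and control 2 lay below every PFOS rat, and the groups overlapped. For Btg2 the log2 change was 0.17 (SE 0.13, 95% confidence interval -0.12 to 0.46, adjusted p = 0.505 by limma) in the ratio and 0.20 in Cy5 alone.

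Bax, the pore-forming protein of the outer mitochondrial membrane, was measured on 10 spots per array. Its log2 ratio was -1.21, -1.03, -1.06 and -1.07 in PFOS livers, against -0.75, -0.96, -1.08 and -0.84 in control livers, and control 3 lay within the PFOS rats. Its log2 change of -0.18 in the ratio (SE 0.09, 95% confidence interval -0.39 to 0.02, adjusted p = 0.297 by limma) was not called.

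With Cy5 alone the 2 groups of Bax did not overlap. Log2 Cy5 was 7.84, 7.94, 7.87 and 7.91 in PFOS livers, against 8.26, 8.06, 7.96 and 8.13 in control livers. Among the 10 genes the groups did not overlap in Cy5 for 2, Gadd45b and Bax, against 13.4% of all tested features. For Bax the lowest control was within 0.02 of the highest PFOS rat. In Cy3, the common reference, Bax was the 1 gene of the 10 whose groups did not overlap, with a log2 change of -0.02. The share of all tested features in Cy3 is not given here. The log2 change in Cy5 was -0.21 (SE 0.08, 95% confidence interval -0.39 to -0.04), with an unadjusted p of 0.0231 and an adjusted p of 0.167 (limma), so Bax was not called. An unadjusted p below 0.05 was reached by 20.9% of all tested features in Cy5.

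Phlda3, a small protein that keeps the kinase Akt from the membrane, had log2 ratios of -1.08, -0.90, -0.53 and -0.86 in PFOS livers, against -0.77, -0.53, -0.64 and -0.18 in control livers. PFOS 3 lay among the controls and control 1 among the PFOS rats. The log2 change of -0.32 (SE 0.15, 95% confidence interval -0.66 to 0.03, adjusted p = 0.284 by limma) was the lowest of the 10 genes and was not called.

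Zmat3, a zinc finger protein that binds RNA, had log2 ratios of -1.18 to -0.88 in PFOS livers, against -1.34 to -0.95 in control livers. Control 1, control 2 and control 3 lay below every PFOS rat and control 4 lay among the PFOS rats, so that the groups overlapped. PFOS minus control gave a log2 change of 0.11 in the ratio (SE 0.11, 95% confidence interval -0.13 to 0.35, adjusted p = 0.611 by limma).

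The members also differed in how much they varied between rats of the same diet. The SD of the log2 ratio within groups was 0.85 for Gadd45g, and 99.2% of all tested features had an SD as small or smaller. It was 0.43 for Gadd45a, at which the same share was 94.8%. It was 0.29 for Ccng1 and 0.24 for Phlda3. Gadd45b, with 0.16, was close to the median of all tested features (0.157), and Mdm2 (0.12) and Bax (0.12) were below it.

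**Figure D3:**
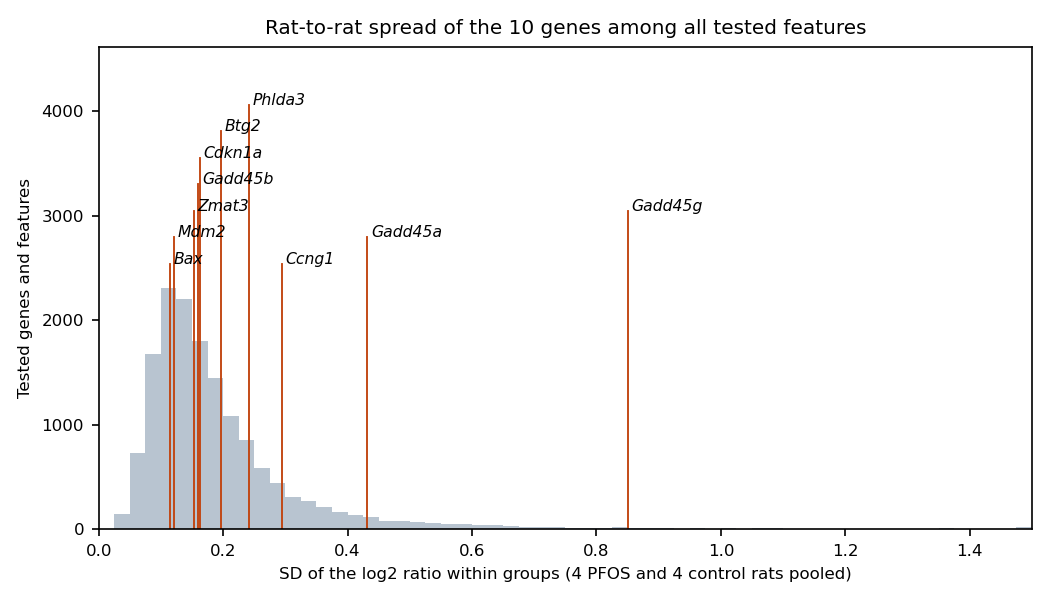
SD of the log2 ratio within groups (x axis, log2 units, 4 PFOS and 4 control rats pooled) of all tested genes and features as bars, with the 10 genes as vertical lines whose heights only separate the names; the last bar holds all SDs at or above its left edge. Gadd45g at 0.85 and Gadd45a at 0.43 lie in the right tail, and Gadd45b lies near the middle at 0.16.

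Genes whose values over the 8 arrays were most like those of 4 members were sought among 9600 other tested genes with a symbol, by the mean absolute difference of log2 ratios after centring each gene on its own mean. For Gadd45b these were Gcdh (0.096), an enzyme of lysine breakdown, Chrdl1 (0.115), a secreted inhibitor of bone morphogenetic proteins, and Ppan (0.123), a factor of ribosome assembly. Their log2 changes were 0.90, 0.82 and 0.80, and that of Chrdl1 was 0.51 with median centring and 2.60 with processed signals. These genes were chosen for values like those of Gadd45b, so similar changes follow from the choice. For Gadd45a they were Ifi27 (0.102), Irf7 (0.106) and Ripk3 (0.121), of which the first and second are genes of the interferon response. For Gadd45g they were Hhex (0.249), a homeobox factor, and Ccdc152 (0.379), and for Cdkn1a Blmh (0.036), Tcaim (0.042) and Calr3 (0.044). These distances are descriptions over 8 arrays that share a slide and a reference, and the farther nearest genes of Gadd45g go with its larger spread.

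Other genes of the same pathways were counted in 11 lists, which share some genes. Of 137 list genes tested, 11 were called in the ratio, 4 higher and 7 lower in PFOS livers (8.03%, against 3.93% of all tested features). The lists were drawn up with results of these data known, and no meaning is read from this share. The calls of Asns, Apex1, Bmf and Nfkbia held without any single rat. With slide column as a block those of Apex1 and Nfkbia were lost (adjusted p = 0.0622 each, limma), as were that of Apex1 with median centring (0.0883) and that of Bmf with scaling between arrays (0.0607). That of Jund was lost with median centring and without PFOS 1, PFOS 3, control 3 or control 4 (adjusted p up to 0.0698 without single rats, limma). Those of Ckap2, Map2k6, Ccng2, Bad, Rrm2 and Atf5 were each lost without any of 6 to 8 of the rats (adjusted p up to 0.118, limma). Each of the latter was also lost with median centring and with slide column as a block, among other settings.

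Of 20 other p53 targets tested (30 listed), none was called higher and 1 was called lower, against calls in 3.93% of all tested features. The median log2 change was 0.02 (all tested features -0.01). Ckap2, a spindle protein of dividing cells, fell by 0.52 on the log2 scale (SE 0.11, adjusted p = 0.04 by limma). Perp, a membrane protein of desmosomes, had a log2 change of 0.42 (SE 0.12, adjusted p = 0.0915) and Plk3, a stress-activated kinase, of 0.33 (SE 0.10, adjusted p = 0.125), neither called.

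Of 8 tested genes in the list on the regulation of p53, none was called, against 3.93% of all tested features, with a median of 0.01. Hipk2, a kinase that phosphorylates p53, had a change of 0.30 (adjusted p = 0.244), and Usp7, which removes ubiquitin from p53 and Mdm2, of -0.13 (adjusted p = 0.497).

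Among 12 tested partners of Gadd45 proteins, none was called higher and 1 was called lower (3.93% of all tested features were called), with a median of -0.14. Map2k6, a kinase directly above p38, fell by 0.46 on the log2 scale (SE 0.09, adjusted p = 0.0309 by limma). It was well above background on 2 of 4 PFOS arrays and 4 of 4 control arrays, and in Cy5 alone it was not called (-0.37, adjusted p = 0.0829). Nr1i3, which encodes the receptor CAR, averaged 5.66 ± 0.52 in PFOS livers and 4.26 ± 0.99 in control livers (SD, n = 4 each), a log2 change of 1.40 (SE 0.45, 95% confidence interval 0.38 to 2.42) that was not called (adjusted p = 0.132). Cdk1 had a change of -0.49 (adjusted p = 0.172).

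None of 7 other CDK inhibitors was called, against 3.93% of all tested features. Cdkn1c was at -0.52 (adjusted p = 0.327), Cdkn2d at -0.38 (adjusted p = 0.132) and Cdkn3 at 0.37 (adjusted p = 0.239). Of 27 cyclins, CDKs and proliferation genes, none was called higher and 1 was called lower (3.93% of all tested features were called), with a median of -0.09. Rrm2, a subunit of the reductase that makes deoxynucleotides, fell by 0.69 on the log2 scale (SE 0.15, adjusted p = 0.0417 by limma), while Plk1 (-0.36, adjusted p = 0.156) and Mcm7 (0.22, adjusted p = 0.161) were not called.

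Of 8 relatives of Btg2, Ccng1, Phlda3, Zmat3 and Mdm2, none was called higher and 1 lower (all tested features 3.93%), with a median of -0.01. Ccng2, the paralogue of Ccng1, fell by 0.41 on the log2 scale (SE 0.09, adjusted p = 0.0362 by limma). Tob2, an antiproliferative relative of Btg2, averaged 0.35 ± 0.35 in PFOS livers and -0.38 ± 0.28 in control livers (SD, n = 4 each), a change of 0.73 that was not called (SE 0.19, adjusted p = 0.0712). Phlda2 had a change of -0.17 (adjusted p = 0.473).

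In the Bcl2 family, to which Bax belongs, none of 12 tested genes was called higher and 2 were called lower. The median was -0.08, and 3.93% of all tested features were called. Bmf, a death-promoting protein released from the cytoskeleton under stress, averaged 2.43 ± 0.28 in PFOS livers and 3.51 ± 0.17 in control livers (SD, n = 4 each), and fell by 1.08 on the log2 scale (SE 0.15, adjusted p = 0.00522 by limma). Bad, a death-promoting protein controlled by phosphorylation, fell by 0.36 (SE 0.08, adjusted p = 0.046). Mcl1, a survival protein, had a change of 0.19 (adjusted p = 0.329).

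Of 16 DNA repair genes 1 was called higher and none lower (3.93% of all tested features were called), with a median of -0.02. Apex1, the endonuclease of base excision repair, averaged -0.85 ± 0.11 in PFOS livers and -1.46 ± 0.12 in control livers (SD, n = 4 each), and rose by 0.61 on the log2 scale (SE 0.09, adjusted p = 0.00712 by limma). Parp1 (0.29, adjusted p = 0.21) and Xrcc5 (0.14, adjusted p = 0.273) were not called.

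Pathways that are known to induce Gadd45b outside p53 were counted as well. Of 14 immediate early and NF-kB target genes 2 were called higher and none lower (all tested features 3.93%), with a median of 0.23. Nfkbia, the inhibitor that NF-kB induces against itself, averaged -0.55 ± 0.27 in PFOS livers and -1.36 ± 0.15 in control livers (SD, n = 4 each), and rose by 0.81 on the log2 scale (SE 0.14, adjusted p = 0.015 by limma). In Cy5 alone its change was also 0.81, with an adjusted p of 0.0506. Jund, a subunit of the factor AP-1, rose by 0.62 (SE 0.12, adjusted p = 0.0244), and Ier3 had a change of -0.52 (adjusted p = 0.0745) in the opposite direction.

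Of 13 genes of the integrated stress response 1 was called higher and 1 lower (all tested features 3.93%), with a median of 0.19. Asns, asparagine synthetase, averaged -1.98 ± 0.29 in PFOS livers and -3.31 ± 0.24 in control livers (SD, n = 4 each), and rose by 1.33 on the log2 scale (SE 0.16, adjusted p = 0.00353 by limma). Atf5, a transcription factor, fell by 0.54 (SE 0.13, adjusted p = 0.0495), and Trib3, a pseudokinase, had a change of 0.93 (SE 0.24, adjusted p = 0.0663). None of 12 genes that respond to glucocorticoids or the clock was called in the ratio (all tested features 3.93%), with a median of 0.11. Per2, a clock repressor, had a change of -0.60 in the ratio (adjusted p = 0.0503) and fell by 0.48 in Cy5 alone (adjusted p = 0.0226). In the ratio Per2 was called under 8 of 21 alternatives, with changes of -1.30 to -0.44 over the planned settings. Nr1d1 (0.89, SE 0.49) and Tat (0.84, SE 0.25) were not called, although Tat was called without control 1 (adjusted p = 0.0311, limma), and Nr1d1 was 0.49 without PFOS 1 and 1.37 without PFOS 3.

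**Figure D4:**
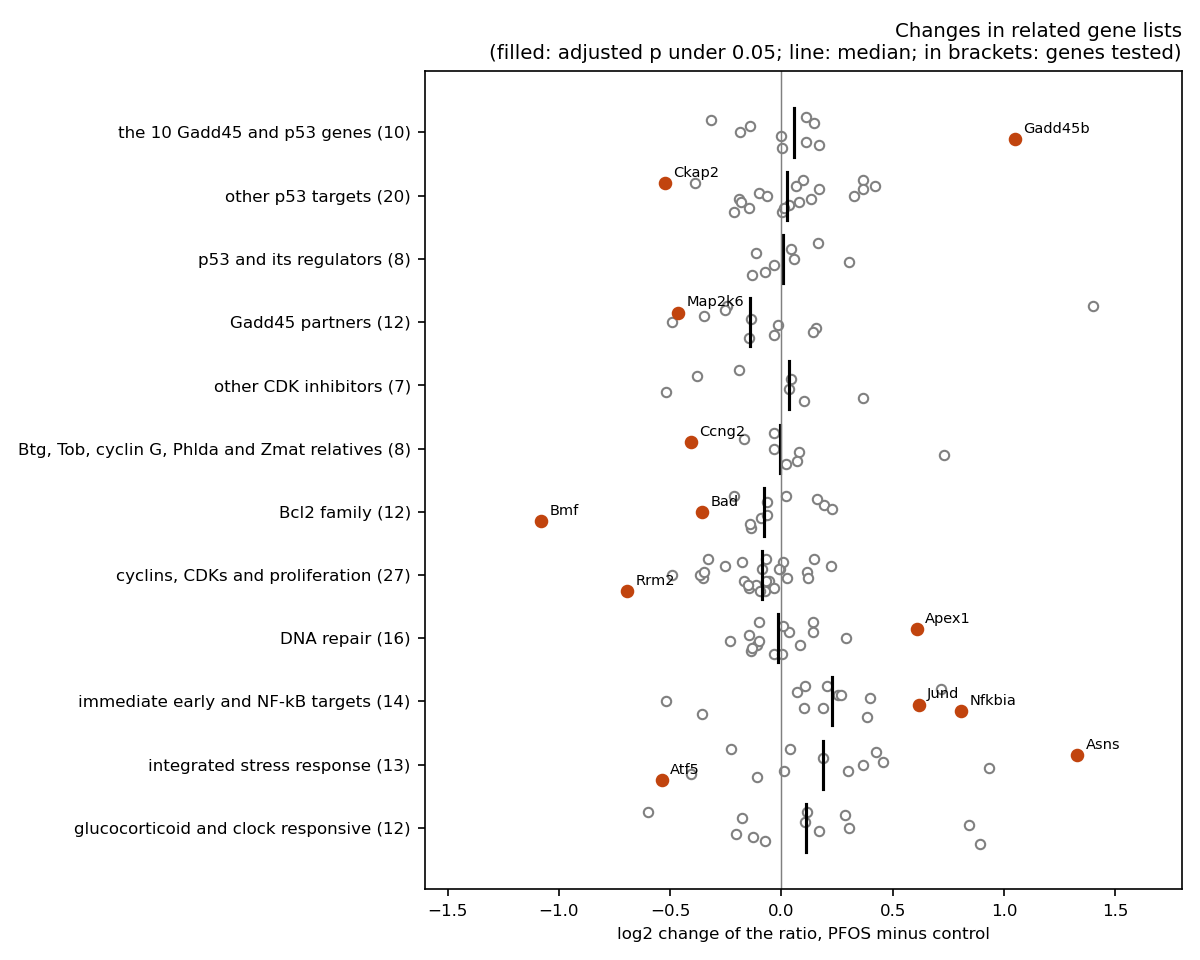
Log2 change of the ratio, PFOS minus control, of each tested gene in the 10 Gadd45 and p53 genes and in 11 related lists (rows); filled points had an adjusted p below 0.05 (limma), open points did not, and the short line is the median of the list. Gadd45b is the 1 filled point of its row, and the filled points farthest from 0 in the other rows are Asns at 1.33 and Bmf at -1.08.

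The tissue label was checked against marker genes of 7 cell classes. All 8 hepatocyte markers were well above background on all arrays, with a summed Cy5 signal of 786000 to 847000 units in PFOS livers and 863000 to 944000 units in control livers, which did not overlap. Such a sum weighs the brightest genes most. The median log2 change of the 8 markers was 0.05 in Cy5 and -0.11 in the ratio. In the ratio single markers ran from -0.45 (Ttr) to 0.84 (Tat). The cause of the lower sum was not tested. In the ratio none of the markers of any class was called (all tested features 3.93%). In Cy5 alone Apoa1 and Serpina1 were called lower (all tested features 4.69%, both directions). Apoa1 was also called lower in Cy3, the common reference, where it changed by -1.38 (adjusted p = 0.0107 by limma), against -1.80 in Cy5 and -0.38 in the ratio. Macrophage markers summed to 17100 to 29200 units in PFOS livers and 19800 to 31100 units in control livers over 7 genes, and markers of other leukocytes to 643 to 866 and 768 to 918 units over 5 of 8 genes, since Cd3e, Ncr1 and Ly6g6d were not above background on enough arrays. Endothelial markers (3 genes) summed to 4900 to 7090 units in PFOS livers and 6570 to 12100 units in control livers, and stellate or fibroblast markers (7 genes) to 12000 to 13500 and 12300 to 15800 units. Cholangiocyte markers (3 genes) summed to 696 to 1020 units in PFOS livers and 583 to 723 units in control livers, and erythroid markers (3 genes) to 115000 to 140000 and 94700 to 247000 units. Their part in the rise of Gadd45b was not tested.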

How the data were processed

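Liver messenger RNA of 4 PFOS and 4 control rats was measured on Agilent SurePrint G3 rat arrays. Groups came from the labels. Replicate numbers follow accession order and pair nothing, and titles name separate animals. Per the labels, liver RNA carried Cy5 and universal rat reference RNA Cy3 on every array, with no dye swap. Per the file headers, the authors deposited linear spot intensity data from Agilent Feature Extraction 10.7.3.1, which the submitters' processing notes also name. The headers give a scan at 3 micrometres, not the resolution of the design text. A value table that the authors deposited holds log2 ratios (how they were made is not given in the sources used here). It correlated with the loess log2 ratio without background subtraction at 0.995 to 0.997 (slopes 0.989 to 0.993), which settles its scale and direction. Its medians were -0.052, -0.061, -0.061 and -0.053 in PFOS 1 to 4 and -0.048, -0.054, -0.052 and -0.057 in control 1 to 4, and its centring is unknown.

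From median signals, background was corrected with normexp (offset 50) and arrays were normalized by loess. Control spots (4259 of 62976) had weight 0, outlier spots (733 to 991 per array) were left out, no spot was saturated, and spots of a probe were averaged. Cy5 and Cy3 alone were quantile-normalized. RefSeq named 17933 of 19131 probes with a curated accession, and 18004 of 30367 probes had a symbol. A probe was tested where it was well above background (Cy5 channel) on 4 or more of the 8 arrays (16952 probes), and the probe with the highest mean Cy5 stood for a gene (15204 genes and features). Groups were compared with limma 3.58.1 in R 4.3.3, with tables read by data.table (version 1.17.8), and p-values were adjusted by Benjamini-Hochberg over all tested features. Single differences between genes or probes used exact permutation over arrays. The steps were tested on simulated data. The members and lists were chosen with earlier results of these data known. The rule chose 55 genes: the 10 members, list genes that were called or had the 3 smallest p-values of a list, and 3 genes most like each of 4 members. Of these, 2 are not reported here. Alternatives covered the background correction, the signals, the normalization, the authors' table, the filter, the probe choice, the variance model, array weights, the slide position, a minimum fold and each array left out. Slide rows alone and the difference between probes were chosen after seeing the data, and the difference between paralogues was not a planned comparison. The files' own coordinates belong to an older build and are not used.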

Additional observations from a re-analysis of the deposited data

Results flagged for a closer look

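Of 120 groups of 4 rats examined, 8 (6.67%) held a rat whose gap to its nearest neighbour was above Dixon's critical value at the 95% level. The gap was taken as a share of the group's range. For independent groups chance alone gives about 1 in 20. These groups are not independent, since the ratio and Cy5 of a member probe come from the same spots, so the share is not compared with chance. For Gadd45b, control 1 was above the other controls, at a log2 ratio of -2.04 against -2.35 to -2.34 and at a log2 Cy5 of 8.51 against 8.17 to 8.22, and it was still below every PFOS rat. For the second Cdkn1a probe, PFOS 3 was above the other PFOS rats, at a log2 ratio of 0.37 against -0.46 to -0.35 and at a log2 Cy5 of 12.57 against 11.75 to 11.88. For Mdm2 in Cy5 alone, PFOS 2 was at 7.36 against 7.78 to 7.82 in the other PFOS rats. In the lists, control 2 was at a log2 ratio of 0.04 for Ccng2 (other controls -0.21 to -0.18), control 3 was at -1.63 for Apex1 (other controls -1.41 to -1.37), and PFOS 4 was at 5.89 for Tat (other PFOS rats 5.31 to 5.32).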

How the results depend on the processing

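Gadd45b was called in the ratio and in Cy5 alone under every alternative run on all 8 arrays and without each rat, with log2 changes of 0.96 to 1.17 and 1.04 to 1.27 over the planned settings and 0.99 to 1.12 and 1.00 to 1.16 without single rats. Within slide row 1 or 2 alone, 0 genes and 0 probes of the 10 genes were called by limma, where 97 and 32 features were called in the ratio and 111 and 28 in Cy5, with 4 arrays in place of 8. No other member was called under any alternative. Over all features the ratio gave 239 calls with arrays centred on the median, 330 with scaling between arrays, 273 with slide column as a block, 342 with a 1.5-fold minimum, and 349 to 519 without single rats, against 597, and omitting PFOS 1, PFOS 2, PFOS 3, control 1, control 2 or control 3 lowered it by over 1.5 times. Cy5 alone gave 413 with 75th percentile scaling, 456 with slide column as a block and 409 to 698 without single rats, lowest without PFOS 1, against 713. Cy3 gave 8 to 19 without single rats, highest without control 3, against 12. The causes were not tested.

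Changes near 0 took the other sign, none of them called. In the ratio Cdkn1a was -0.027 with processed signals, -0.022 in the authors' table, -0.19 in slide row 1, -0.063 to 0.11 without single rats and, without a change of sign, 0.33 with the mean of its 2 probes, and Mdm2 was 0.02 with median centring, 0.0036 in the authors' table, 0.039 with the mean of probes, 0.035 in slide row 1 and -0.042 to 0.053 without single rats. Without single rats Gadd45a was -0.081 to 0.39 and Gadd45g -0.43 to 0.27. In slide row 2 the ratio gave 1.09 for Gadd45g, -0.088 for Zmat3 and -0.042 for Ccng1, and Cy5 alone gave 1.14 for Gadd45g, 0.17 for Cdkn1a, -0.012 for Btg2, -0.17 for Zmat3, -0.14 for Ccng1 and -0.047 for the second Mdm2 probe. In Cy5 without single rats, Cdkn1a was -0.17 to 0.084, Gadd45g -0.42 to 0.29, Gadd45a -0.019 to 0.48, Ccng1 -4e-04 to 0.23 and the second Mdm2 probe -0.018 to 0.046. No paired analysis was possible because the replicate numbers follow accession order and pair no rats. Signal over background limits Zmat3's second probe and 4 of the list genes named above, which were not well above background on every array. For these 4 genes the changes in the ratio over the planned settings were -1.57 to -0.19 for Map2k6, -1.30 to -0.44 for Per2, -0.95 to -0.32 for Cdkn2d and 0.33 to 0.92 for Cdkn3. List genes that were counted but not named share this limit, among them Psrc1, Mcm6 and Bik, each well above background on 2 of 4 arrays per group. Cdkn1c was -0.68 to -0.24 without single rats. Calls appeared for Tob2 without PFOS 1 (adjusted p = 0.0346) and with slide column as a block (0.034), for Cdk1 (0.0358) and Trib3 (0.0268) without PFOS 4 and for Perp (0.0464) without control 2 (limma).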
